A study of Rattus norvegicus with 9 samples.

Results

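The glycolysis and hypoxia response genes are a list of 38 rat genes chosen by function, with earlier results of these data known. They code for glucose transporters, the glycolytic enzymes, the proteins that handle lactate and pyruvate, the hypoxia-inducible factor (HIF) subunits with the enzymes that mark them for degradation, and a set of genes that HIF is known to switch on. Of these, 36 were measured, out of 14218 genes read from a probe set that carries exactly 1 gene symbol, and for a gene with several such probe sets the brightest on average was taken. Hk3, a hexokinase, had no probe set with its symbol. The probe set of Pkm, the pyruvate kinase of most tissues, carried several symbols and was not used. The 36 genes had 58 such probe sets in all, and 21 of them had only 1.

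The study asked what adhesion to fibrinogen does to monocytes and macrophages, and what the foreign body reaction (FBR) to an implant adds to it. Expression was measured on 9 Affymetrix rat arrays, 3 for each of 3 groups of CD68+ cells from male Wistar rats without any genetic change. Blood CD68+ cells were taken from the mononuclear layer of blood, selected with magnetic beads and lysed without culture, and they served as the controls. In vitro activated CD68+ cells were selected from blood in the same way and then kept for 3 days on PTFE, a vascular graft polymer, coated with fibrinogen. FBR CD68+ cells came from the tissue that had formed after 3 days on patches of photo-oxidized bovine pericardium, held in steel cages in the peritoneal cavity. These cells were freed with collagenase and plasmin before the same bead selection. All RNA was amplified with T7 polymerase before hybridisation. The titles call the 3 arrays of a group biological replicates. How many rats stood behind each array is not given in the sources used here, so the p-values measure the spread between these samples. Ages were not given.

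Glycolysis splits glucose into pyruvate and yields ATP without oxygen, and lactate dehydrogenase then turns pyruvate into lactate, which leaves the cell through monocarboxylate transporters. HIF is a pair of proteins whose alpha subunit is hydroxylated by oxygen-dependent prolyl hydroxylases and then destroyed, so that it accumulates when oxygen is low. It binds short DNA elements with the core letters ACGTG or GCGTG and switches on most glycolytic genes. In macrophages the alpha subunit can also accumulate in normal oxygen after inflammatory stimulation, and glycolysis is known to rise when these cells are activated.

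The values were MAS5 signals, a linear brightness scale on which the trimmed mean of every array was close to 500. Arrays of the same group correlated at r = 0.931 to 0.976 and arrays of different groups at 0.796 to 0.899 across probe sets. The median signal was lower in FBR cells (69.5 to 77.4) than in blood (97.3 to 102.9) or in vitro activated cells (87.0 to 110.1). Of the 324 member values, 3 could not be read back from the deposited table and 10 lay under 16. Fold changes were differences of log2(signal + 16), a scale that understates the change of dim genes. A gene was called higher or lower at a Benjamini-Hochberg adjusted p under 0.05 in limma, fitted over all probe sets.

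The cells were checked against markers. Cd68, the selected antigen, averaged 7905 in blood, 30367 in cells activated in vitro and 21782 in FBR cells. The summed signal of 9 of 10 listed macrophage markers was 11733 to 39085 in blood, 63702 to 83551 in cells activated in vitro and 90768 to 109350 in FBR cells. B cell markers ran the other way, and their 3 measured genes of 6 listed summed to 22609 to 31034 in blood, 185.5 to 1314 after activation in vitro and 16.7 to 81.7 in FBR cells. Ms4a1 (CD20), which defines B cells, averaged 14890, 347 and 19.6. The blood preparation therefore carried B cell transcripts that the other groups had nearly lost, and T cell and NK cell markers were also highest there. The 6 T cell genes summed to 2272 to 4463 in blood, 372.6 to 1355 in cells activated in vitro and 789.7 to 840.8 in FBR cells, and the 6 NK cell genes to 2014 to 7537, 101.3 to 132.0 and 37.2 to 139.5. Neutrophil markers (6 of 8 listed genes measured) summed to 577.7 to 2222 in blood, 207.1 to 775.5 in cells activated in vitro and 2292 to 3055 in FBR cells. S100a9, S100a8 and Csf3r were called higher in FBR cells than in those activated in vitro, while Cxcr2 and Mmp8 stayed at group means of 15.6 to 26.9. Fibroblast markers (7 genes) reached 129.1 to 176.6, 149.6 to 460.6 and 315.3 to 1275. Platelet and red cell markers (6 of 7) summed to 6990 to 15103, 3859 to 8106 and 14282 to 21372, the FBR sum resting on Pf4. The 3 mesothelial markers summed to 75.8 to 88.2, 99.9 to 212.0 and 120.9 to 275.5, and the 3 endothelial markers to 249.9 to 775.8, 127.5 to 139.9 and 210.2 to 356.7. A gene that could not be read on an array is left out of that array's sum. This was so for Lck (T cell) and Itgam (macrophage) in in vitro activated replicate 1, Pecam1 (endothelial) in blood replicate 2, Cd3e (T cell) in FBR replicate 1, and Cd14, Gp9, Pdgfra and Kdr in FBR replicate 2, whose macrophage, platelet, fibroblast and endothelial sums are therefore too low. These shifts move with all the comparisons below, and their part in the members' differences was not tested. In such bulk samples, fewer cells of a type and less RNA per cell cannot be told apart.

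**Figure D1:**
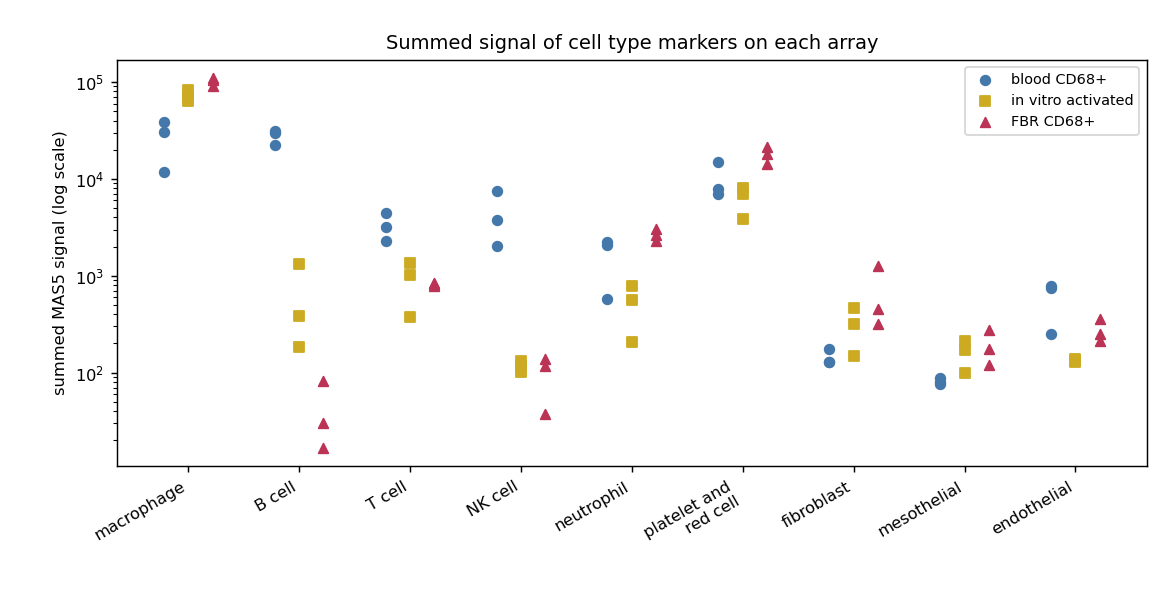
Summed MAS5 signal (log scale) of each cell type's marker genes on each of the 9 arrays, in blood (circles), in vitro activated (squares) and FBR (triangles) CD68+ cells. B cell markers fell from 22609 to 31034 in blood to 16.7 to 81.7 in FBR cells, and macrophage markers were lowest in blood.

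Most members were higher in both kinds of macrophage than in blood cells, and many were higher again in FBR cells. In vitro activated cells had 20 of the 36 members higher and 3 lower than blood, against 15.4% of all genes higher and 12.2% lower. In FBR cells 29 members exceeded blood and 3 fell below it, against 14.7% and 19.2% of all genes. Between FBR and in vitro activated cells, 19 members were higher in FBR and 0 were lower, against 8.88% and 16.7% of all genes. At an unadjusted p under 0.05 in limma, 0 were lower as well. The median member difference was 1.30, 2.47 and 1.41 on the log2 scale in these comparisons, where the median of all genes was 0.13, -0.09 and -0.23. The comparisons share arrays, since blood serves as the control for both kinds of macrophage, so they are not independent of each other.

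The arrays themselves showed the same order. Every in vitro activated array was above every blood array for 23 of 36 members (24.4% of all genes) and below for 4 (18.6%). All FBR arrays were above all blood arrays for 27 of the 33 members read on every array of both groups (22.5%) and below for 3 (29.2%). Against the in vitro activated arrays they were all above for 21 of 33 (16.5%) and all below for 0 (29.8%). With 3 arrays a side an exact permutation test cannot go below p = 0.1, so the calls rest on the spread pooled over genes.

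**Figure D2:**
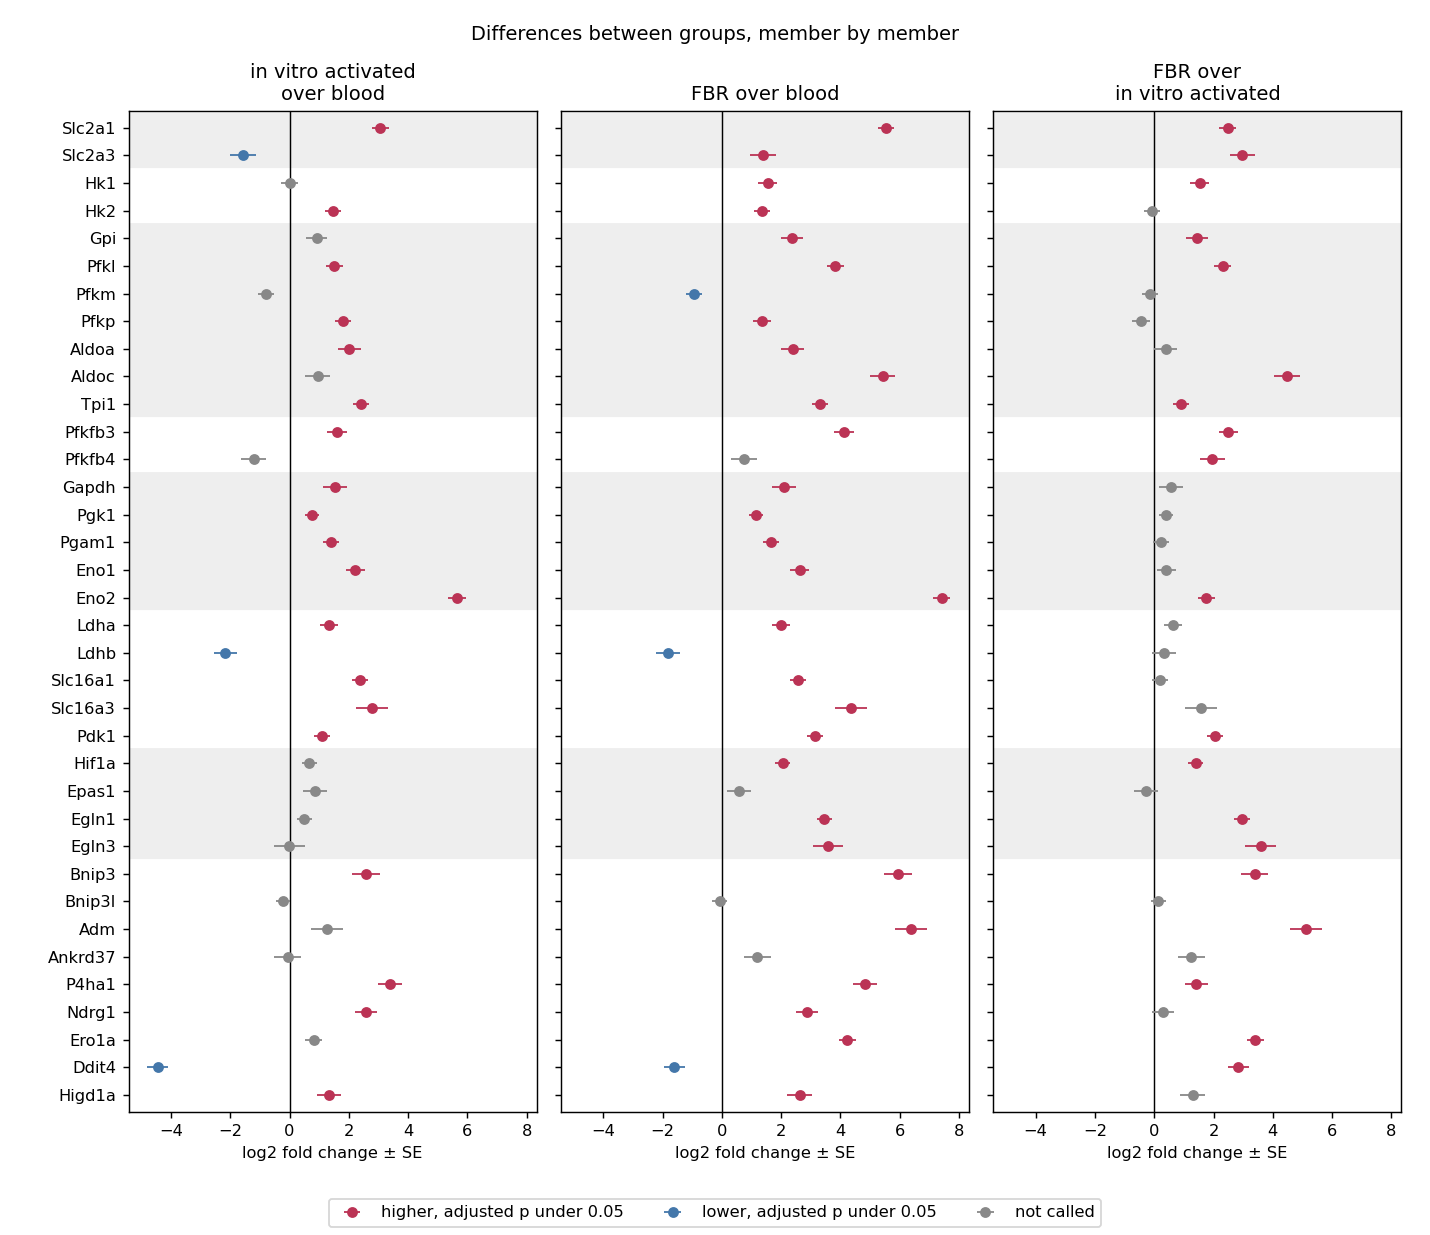
Log2 fold change (log2 of signal + 16) with its standard error for each of the 36 members in the 3 comparisons, 3 arrays per group, coloured by the call at an adjusted p under 0.05. Against blood, 29 members lay higher in FBR cells and only Pfkm, Ldhb and Ddit4 were called lower.

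The stretch just before the gene start is shown for 6 members that rose in FBR cells, to show the letters HIF binds. These 6 were picked from the members that held ACGTG there, so that they all hold it is no result. Pdk1, Egln1, P4ha1 and Pfkl also rose in FBR cells and did not hold ACGTG in the same stretch. Pdk1, Egln1 and P4ha1 did hold the other core, GCGTG, there, and ACGTG within the 50 bases after the start. In Pfkl, GCGTG stood further upstream. The 150 bases before the RefSeq start (build GRCr8) are given 5′ to 3′ on the gene's strand, in lower case, with ACGTG or its reverse complement CACGT in capitals. These are chr4:159267221-159267370 (minus strand) for Eno2, chr1:203154963-203155112 (minus) for Bnip3, chr5:138002372-138002521 (plus) for Slc2a1, chr10:63715394-63715543 (plus) for Aldoc, chr17:71944783-71944932 (plus) for Pfkfb3 and chr1:106507942-106508091 (plus) for Ldha.
Eno2: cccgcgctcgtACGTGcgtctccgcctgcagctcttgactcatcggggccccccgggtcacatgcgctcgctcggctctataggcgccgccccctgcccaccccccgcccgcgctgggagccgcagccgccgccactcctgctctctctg
Bnip3: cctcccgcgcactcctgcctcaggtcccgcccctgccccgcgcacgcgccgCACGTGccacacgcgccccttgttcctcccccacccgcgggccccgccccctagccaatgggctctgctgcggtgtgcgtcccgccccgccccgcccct
Slc2a1: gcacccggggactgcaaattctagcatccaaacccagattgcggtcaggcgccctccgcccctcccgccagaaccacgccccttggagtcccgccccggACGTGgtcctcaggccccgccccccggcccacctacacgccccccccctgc
Aldoc: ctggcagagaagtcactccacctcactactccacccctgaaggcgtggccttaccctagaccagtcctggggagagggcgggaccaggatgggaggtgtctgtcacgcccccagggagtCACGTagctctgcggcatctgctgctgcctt
Pfkfb3: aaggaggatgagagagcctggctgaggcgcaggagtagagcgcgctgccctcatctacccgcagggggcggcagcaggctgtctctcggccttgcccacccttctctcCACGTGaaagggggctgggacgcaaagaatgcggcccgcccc
Ldha: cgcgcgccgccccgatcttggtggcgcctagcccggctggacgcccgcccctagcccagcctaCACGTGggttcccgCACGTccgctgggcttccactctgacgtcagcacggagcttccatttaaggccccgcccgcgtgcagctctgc
Bnip3 and Pfkfb3 held the letters as CACGTG, which reads the same on both strands, and Ldha held that palindrome and a separate CACGT. Counting from -1 at the base before the start, the motif began at -139 in Eno2, at -51 in Slc2a1 and at -31 in Aldoc. In windows from 250 bases before to 50 after the start, which covered 31 of the 36 measured members in 35 windows, ACGTG stood on either strand in 21 (60%), against 19.3% of all 33469 windows. GCGTG stood in 18 (51.4%) against 29.7%, and CACGTG, which contains ACGTG, in 6 (17.1%) against 6.42%. The member windows were richer in G and C, with a median of 64.7% against 51.7%, and the part of this in the counts was not tested. Members higher in FBR than in blood held ACGTG in 18 of 29 windows (62.1%) and the other measured members in 3 of 6 (50%). A match is only a match of letters. No window was listed for Bnip3l, Ero1a, Ndrg1, Pgk1 and Slc2a3.

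Glucose enters through the GLUT transporters. Slc2a1 (GLUT1, the transporter of most activated cells) had signals of 316.3, 215.2 and 404.9 in blood, 2958, 2073 and 2989 in cells activated in vitro and 15992, 14387 and 13722 in FBR cells. The 3 groups did not overlap. The log2 fold change was 3.06 (SE 0.28, adjusted p = 6.8e-05, limma) in in vitro activated cells over blood, 5.53 (SE 0.28, 2.1e-06) in FBR cells over blood and 2.47 (SE 0.28, 0.00032) in FBR over in vitro activated cells. Slc2a3 (GLUT3, a high-affinity transporter) ran differently. Its signals were 72.5, 167.8 and 171.8 in blood, 48.2, 44.0 and 14.0 in cells activated in vitro and 227.3, 429.8 and 492.8 in FBR cells. It was lowest in all 3 in vitro activated arrays and highest in all 3 FBR arrays, with log2 fold changes of -1.57 (SE 0.43, adjusted p = 0.022), 1.39 (SE 0.43, 0.03) and 2.97 (SE 0.43, 0.0011). Its calls against blood were lost without some arrays: the adjusted p for in vitro activated cells was 0.076, 0.075 and 0.067 without blood replicate 2, blood replicate 3 and in vitro activated replicate 3, and that for FBR cells 0.11, 0.098 and 0.11 without blood replicate 1, FBR replicate 2 and FBR replicate 3. A dimmer Slc2a3 probe set, with group means of 50.1, 45.7 and 10.9, was not called, and with both averaged no Slc2a3 difference was (log2 fold changes -0.88, 0.15 and 1.03, adjusted p = 0.15, 0.83 and 0.1).

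Hexokinases trap glucose in the cell as glucose 6-phosphate. Hk2, the inducible form, had signals of 24.0, 23.0 and 36.4 in blood, 95.7, 88.8 and 125.2 in cells activated in vitro and 117.5, 65.4 and 111.2 in FBR cells. Both macrophage groups lay above blood and overlapped each other. The log2 fold changes over blood were 1.45 (SE 0.27, adjusted p = 0.0037) and 1.36 (SE 0.27, 0.0036), and these dim signals make them depend on the pseudocount, at 0.86 and 0.81 with a pseudocount of 64. FBR and in vitro activated cells differed by -0.09 (SE 0.27, adjusted p = 0.85), a sign that turned under median centring and quantile normalization. Hk1, the constitutive form, averaged 469 ± 128 (SD, n = 3) in blood, 469 ± 114 (n = 3) in cells activated in vitro and 1370 ± 60 (n = 2, since 1 array could not be read) in FBR cells. It was higher only in FBR cells, by 1.55 over blood (adjusted p = 0.0054) and by 1.54 over in vitro activated cells (0.0088).

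In upper glycolysis, from glucose 6-phosphate to the triose phosphates, 4 of 7 members were higher in in vitro activated cells than in blood, and in FBR cells 6 were higher and 1, Pfkm, was lower. Of all genes, 15.4% were higher in in vitro activated cells than in blood, and in FBR cells 14.7% were higher and 19.2% lower. Pfkl (the liver type of phosphofructokinase, the committing enzyme) had signals of 101.6, 53.6 and 114.4 in blood, 283.1, 304.9 and 242.4 in cells activated in vitro and 1363, 1634 and 1326 in FBR cells. The groups did not overlap, and the log2 fold changes were 1.51 (SE 0.28, adjusted p = 0.0032), 3.83 (SE 0.28, 1e-05) and 2.31 (SE 0.28, 0.00045) for in vitro activated over blood, FBR over blood and FBR over in vitro activated cells. The other phosphofructokinases did not share this pattern of values. Pfkp (platelet type) averaged 715 ± 72.4 (n = 3), 2583 ± 582 (n = 3) and 1867 ± 370 (n = 2), higher than blood by 1.81 (adjusted p = 0.0012) and 1.36 (0.0069), the latter at 0.058 without FBR replicate 1. Pfkm (muscle type) averaged 206 ± 30.5, 110 ± 10.7 and 102 ± 31.9 (n = 3 each). Its difference of -0.81 in in vitro activated cells was not called (0.052), and that of -0.94 in FBR cells was (0.022), but not under median centring (-0.57, 0.12), under quantile normalization (-0.51, 0.16) or without FBR replicate 2, blood replicate 2 or blood replicate 3 (0.096, 0.062 and 0.065).

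Aldolase cleaves the hexose into triose phosphates. Aldoc, the form known best from brain, had signals of 8.9, 10.6 and 16.7 in blood, 20.1, 19.3 and 105.8 in cells activated in vitro and 1326, 1106 and 1101 in FBR cells. All FBR arrays were above 1000 and all the others at 105.8 or less. The difference was 5.42 (SE 0.43, adjusted p = 1.7e-05) over blood and 4.47 (SE 0.43, 0.00013) over in vitro activated cells, and 0.95 (0.14) between in vitro activated cells and blood. With blood signals this low, the FBR over blood value went from 4.03 with a pseudocount of 64 to 6.54 with a pseudocount of 1. Aldoa, the main form in most cells, averaged 6248 ± 3146 in blood, 22823 ± 4053 in cells activated in vitro and 29406 ± 2597 in FBR cells (n = 3 each). It was higher than blood by 2.01 (0.0043) and 2.39 (0.0011), with 0.38 (0.53) between the macrophage groups. Gpi, the phosphoglucose isomerase, averaged 3209 ± 1420, 5609 ± 924 and 15167 ± 948. It was called in FBR cells, by 2.36 over blood (0.00072) and 1.44 over in vitro activated cells (0.016), the latter at 0.057 without FBR replicate 2, 0.051 without in vitro activated replicate 2 and 0.072 under quantile normalization.

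Tpi1, which interconverts the triose phosphates, had signals of 2555, 1501 and 2295 in blood, 10982, 9931 and 12282 in cells activated in vitro and 17459, 23276 and 21170 in FBR cells. No array overlapped another group. The log2 fold changes were 2.41 (SE 0.27, adjusted p = 0.00018) and 3.30 (SE 0.27, 1.8e-05) over blood and 0.89 (SE 0.27, 0.036) between the macrophage groups. That last call was lost in 8 of the 17 alternatives, with adjusted p of 0.15 under quantile normalization, 0.059 with a pseudocount of 1, 0.057 with the replicate number as a block, and 0.12, 0.1, 0.05, 0.076 and 0.093 without FBR replicates 2 and 3, blood replicate 3 and in vitro activated replicates 1 and 2.

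**Figure D3:**
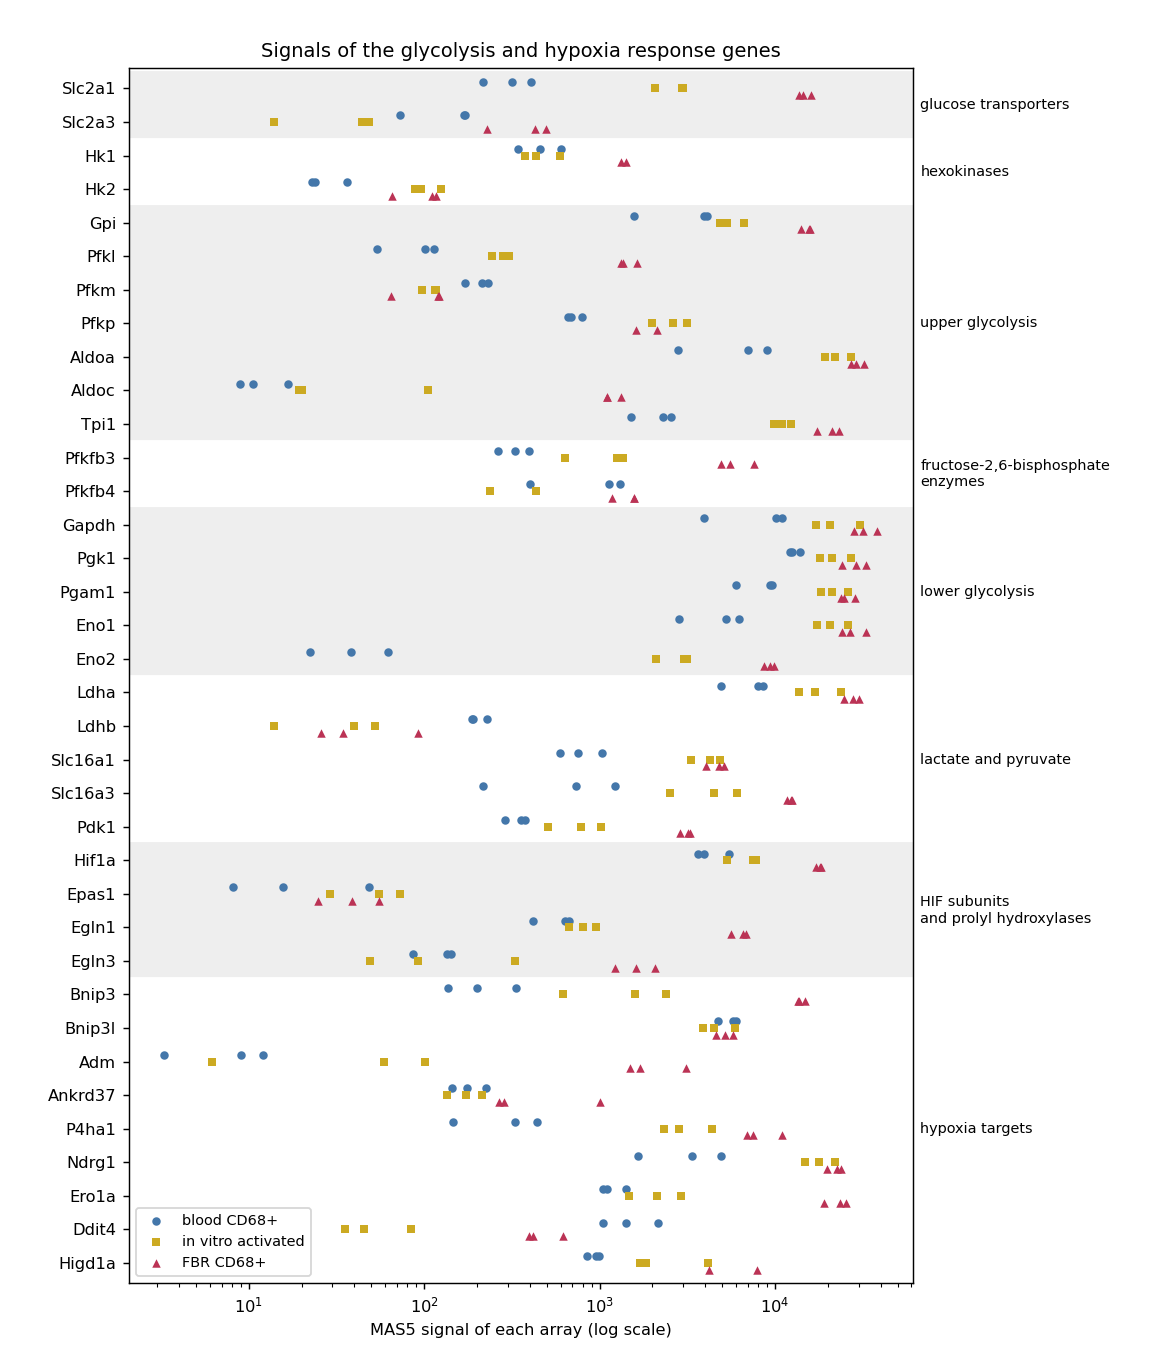
MAS5 signal (log scale) of each of the 36 members on each array, 3 blood (circles), 3 in vitro activated (squares) and 3 FBR (triangles) arrays, grouped by role, with the 3 unread FBR values left out. Slc2a1, Pfkl, Eno2 and Bnip3 stepped up from blood to in vitro activated to FBR cells with no overlap, whereas Aldoc, Egln1, Egln3 and Ero1a stood apart mainly in FBR cells.

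The bifunctional enzymes that make and remove fructose 2,6-bisphosphate, the strongest activator of phosphofructokinase, had separate patterns. Pfkfb3, the isoform with mostly kinase activity, had signals of 396.8, 264.6 and 331.0 in blood, 1367, 637.2 and 1251 in cells activated in vitro and 7615, 5515 and 4899 in FBR cells. All 3 groups were separate. Its log2 fold changes were 1.61 (SE 0.33, adjusted p = 0.0059), 4.11 (SE 0.33, 1.8e-05) and 2.50 (SE 0.33, 0.00074) for in vitro activated over blood, FBR over blood and FBR over in vitro activated cells. Its other probe sets, with group means of 23.0 to 66.9, were not called, and with all of them averaged the difference was 0.66 (0.084) for in vitro activated cells over blood and 0.74 (0.062) for FBR over in vitro activated cells. Pfkfb4 averaged 946 ± 479, 368 ± 112 and 1440 ± 228 (n = 3 each). It was higher in FBR cells than in those activated in vitro by 1.96 (0.0092), but not called against blood in either group (-1.21, 0.066 and 0.75, 0.23). Without blood replicate 2 it was lower in in vitro activated cells than in blood, by -1.73 (0.006).

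In lower glycolysis, from glyceraldehyde 3-phosphate to phosphoenolpyruvate, all 5 measured members were higher than blood in both macrophage groups. Only Eno2 was called between these groups. Of all genes, 15.4% were higher in in vitro activated cells than in blood and 14.7% in FBR cells than in blood. Between FBR and in vitro activated cells, 8.88% of all genes were higher in FBR. Eno2 (gamma enolase, known from neurons) was among the members furthest from blood. Its signals were 22.3, 38.4 and 62.0 in blood, 3044, 3169 and 2104 in cells activated in vitro and 9845, 8656 and 9402 in FBR cells. The groups were far apart, at 5.65 (SE 0.30, adjusted p = 1.1e-05) and 7.41 (SE 0.30, 1e-06) over blood, or 50.3-fold and 171-fold, and at 1.76 (SE 0.30, 0.0026) between FBR and in vitro activated cells. With pseudocounts of 1 and 64 the FBR over blood value was 7.91 and 6.50. Adm, described with the HIF targets, also had 7.91 with a pseudocount of 1, so the order of these 2 members depends on the pseudocount. Eno1, the ubiquitous enolase, averaged 4754 ± 1741, 21312 ± 4335 and 27956 ± 4478, higher than blood by 2.22 (0.00085) and 2.62 (0.00023), with 0.40 (0.42) between the macrophage groups. Pgam1, the phosphoglycerate mutase, averaged 8350 ± 2052, 21819 ± 3899 and 25557 ± 2557, and its differences from blood were 1.40 (0.0038) and 1.64 (0.0011). Pgk1, which makes the first ATP of the pathway, averaged 12862 ± 985, 22053 ± 4564 and 28706 ± 4372, with 0.76 (0.046) and 1.15 (0.005) over blood. The in vitro call of Pgk1 was lost in 12 of the 17 alternatives (adjusted p up to 0.17), 8 of them leaving out any array but in vitro activated replicate 2, and its FBR call under quantile normalization (0.59, 0.056). Another Pgk1 probe set, with means of 7201, 12930 and 24304, was called in all 3 comparisons, at 0.85 (0.018), 1.76 (0.00025) and 0.91 (0.015).

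Gapdh, the triose phosphate dehydrogenase, was the reference gene of the study's RT-PCR. Its 3′ probe set gave 10161, 3932 and 10902 in blood, 20717, 17029 and 30579 in cells activated in vitro and 31884, 38136 and 28340 in FBR cells. All 6 macrophage arrays were above all blood arrays, and the 2 macrophage groups overlapped. The log2 fold change was 1.54 (SE 0.40, adjusted p = 0.018) in in vitro activated cells and 2.10 (SE 0.40, 0.0026) in FBR cells over blood, and 0.56 (SE 0.40, 0.35) between them. Without in vitro activated replicate 3 the call in vitro was lost (1.31, 0.057). The 5′ probe set gave 1.33 (0.036), 2.77 (0.00059) and 1.44 (0.029), and the middle one 1.71 (0.018), 2.45 (0.0021) and 0.74 (0.27). The ratio of the 3′ to the 5′ signal, a measure of how complete the amplified RNA was, was 2.95, 2.95 and 3.16 in blood, 3.57, 3.71 and 3.17 in cells activated in vitro and 1.99, 1.94 and 1.74 in FBR cells. It was lowest in all FBR arrays. The same ratio for beta-actin was 9.9, 16.8 and 11.6 in blood, 26.6, 19.2 and 14.6 in cells activated in vitro and 14.6, 11.2 and 7.8 in FBR cells, so that FBR and blood overlapped. The Gapdh ratio moved with the group, and the part of either ratio in the other differences was not tested.

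At the end of the pathway, the enzyme that makes lactate rose and the isoform that favours the reverse reaction fell. Ldha had signals of 8532, 4903 and 8043 in blood, 16849, 13720 and 23771 in cells activated in vitro and 27817, 30151 and 24640 in FBR cells. The groups did not overlap, with 1.34 (SE 0.30, adjusted p = 0.0086) and 1.98 (SE 0.30, 0.00071) over blood, and 0.64 (SE 0.30, 0.16) between the macrophage groups, called only under median centring (0.98, 0.034). Ldhb averaged 202 ± 21.9 in blood, 35.4 ± 19.7 in cells activated in vitro and 50.9 ± 36 in FBR cells (n = 3 each), with log2 fold changes of -2.16 (0.0034) and -1.83 (0.006) against blood. All its blood arrays were above all others. The B cell markers fell in the same arrays, and whether the Ldhb signal came from those cells was not tested. Slc16a3 (MCT4, the transporter that exports lactate) had signals of 1232, 217.3 and 728.9 in blood, 6057, 4503 and 2534 in cells activated in vitro and 12366, 12499 and 11750 in FBR cells. Again no group overlapped another. It was higher than blood by 2.78 (SE 0.54, 0.0044) and 4.35 (SE 0.54, 0.00024). The difference of 1.57 (SE 0.54, 0.063) between the macrophage groups was not called, but was in 7 of the 17 alternatives, among them those without blood replicate 1 (0.038) and without blood replicate 2 (0.012). Slc16a1 (MCT1, which carries lactate and pyruvate either way) averaged 793 ± 218, 4157 ± 770 and 4672 ± 572, higher than blood by 2.38 (0.00021) and 2.56 (9.2e-05).

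Pdk1, the kinase that shuts pyruvate dehydrogenase and so keeps pyruvate out of the mitochondria, had signals of 287.9, 357.0 and 375.3 in blood, 1014, 787.4 and 505.7 in cells activated in vitro and 3182, 3259 and 2888 in FBR cells. The 3 groups were separate. The log2 fold changes were 1.09 (SE 0.28, adjusted p = 0.017) and 3.14 (SE 0.28, 3.4e-05) over blood and 2.05 (SE 0.28, 0.00086) in FBR over in vitro activated cells. Without blood replicate 1 and without in vitro activated replicate 1 the smallest of these was 0.98 (0.058) and 0.87 (0.059). Another Pdk1 probe set gave 0.88 (0.032), 1.55 (0.0013) and 0.67 (0.091).

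None of the 4 members that code for HIF alpha subunits and prolyl hydroxylases was called between in vitro activated cells and blood, and 3 were higher in FBR cells than in either other group. Of all genes, 5.41% were higher in FBR cells than in both others. Hif1a, the oxygen-regulated subunit of HIF-1, had signals of 3645, 5455 and 3928 in blood, 7523, 7789 and 5336 in cells activated in vitro and 17097, 18223 and 18049 in FBR cells. The FBR arrays lay above all others, and in vitro activated and blood arrays overlapped. The differences were 2.05 (SE 0.26, adjusted p = 0.00023) and 1.39 (SE 0.26, 0.0039) for FBR cells over blood and over in vitro activated cells. The in vitro difference of 0.67 (SE 0.26, 0.086) was called without blood replicate 2 (0.84, 0.043) and without in vitro activated replicate 3 (0.84, 0.046). HIF-1 is regulated mainly through protein stability, which arrays do not measure. Epas1 (HIF-2 alpha) was dim, at 24.1 ± 21.5, 52.5 ± 22.1 and 39.7 ± 15.4 (n = 3 each), and was not called, although its in vitro difference of 0.85 (0.16) was without blood replicate 2 (1.26, 0.041).

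Egln1 (PHD2, the main hydroxylase that marks HIF) had signals of 671.5, 414.9 and 634.4 in blood, 955.4, 669.0 and 806.8 in cells activated in vitro and 6853, 6576 and 5641 in FBR cells. Only the FBR arrays stood apart. The difference was 3.46 (SE 0.26, adjusted p = 1.3e-05) over blood and 2.96 (SE 0.26, 8.8e-05) over in vitro activated cells, and 0.50 (SE 0.26, 0.2) between these. Egln3 (PHD3, a hydroxylase that is itself a HIF target) had signals of 86.6, 143.0 and 135.1 in blood, 327.6, 92.0 and 49.2 in cells activated in vitro and 2061, 1225 and 1614 in FBR cells. The in vitro activated arrays spread widely on both sides of blood and the FBR arrays were above 1000. Egln3 was higher in FBR cells by 3.58 (SE 0.52, 0.00058) and 3.59 (SE 0.52, 0.0012), and in vitro activated cells differed from blood by -0.01 (SE 0.52, 0.99), a value whose sign turned under median centring and quantile normalization.

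Among the 9 HIF target members outside glycolysis, 4 were higher and 1 was lower in in vitro activated cells than in blood, 6 were higher and 1 lower in FBR cells than in blood, and 5 were higher in FBR cells than in those activated in vitro. Of all genes, 15.4%, 14.7% and 8.88% were higher in these comparisons, and 12.2%, 19.2% and 16.7% were lower. Bnip3, a mitochondrial protein that directs mitochondria to autophagy, had signals of 136.6, 334.9 and 199.4 in blood, 2398, 1583 and 616.8 in cells activated in vitro and 13453, 14811 and 13761 in FBR cells. The groups were separate, at 2.58 (SE 0.47, adjusted p = 0.0029) and 5.95 (SE 0.47, 1.5e-05) over blood and 3.38 (SE 0.47, 0.00088) between FBR and in vitro activated cells. Its relative Bnip3l (NIX) averaged 5504 ± 701, 4756 ± 1031 and 5190 ± 570 (n = 3 each) and was not called at this probe set. Another Bnip3l probe set, with means of 5190, 3345 and 6442, disagreed. It was lower in in vitro activated cells than in blood (-0.63, 0.048), higher in FBR cells than in those activated in vitro (0.94, 0.009) and not called between FBR cells and blood (0.31, 0.3).

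Adm (adrenomedullin, a secreted peptide that widens vessels) had signals of 9.0, 3.3 and 12.1 in blood, 59.3, 6.2 and 100.7 in cells activated in vitro and 3110, 1492 and 1693 in FBR cells. It was at the bottom of the scale in all blood arrays and above 1000 in all FBR arrays. The difference was 6.39 (SE 0.54, adjusted p = 2.4e-05) over blood and 5.11 (SE 0.54, 0.00022) over in vitro activated cells, and the value over blood went from 4.83 with a pseudocount of 64 to 7.91 with a pseudocount of 1. In vitro activated replicate 2 overlapped blood, and without it the in vitro difference went from 1.28 (0.12) to 1.97 (0.0069). Ankrd37, an ankyrin repeat protein known as a HIF target, had an uneven FBR group, at 1007, 266.0 and 286.0 against 143.4 to 226.1 in blood and 134.7 to 214.2 in in vitro activated cells. It was not called (1.19, 0.075 and 1.25, 0.076 for FBR over blood and over in vitro activated cells), although both passed under median centring (0.021 and 0.027) and quantile normalization (0.022 and 0.042) and the former also without FBR replicate 2 (0.049).

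The targets that act on proteins in the endoplasmic reticulum gave large values. P4ha1, the catalytic subunit of the prolyl hydroxylase that matures collagen, had signals of 437.2, 146.7 and 327.8 in blood, 4379, 2845 and 2335 in cells activated in vitro and 10989, 7459 and 6917 in FBR cells. The groups did not overlap, at 3.40 (SE 0.40, adjusted p = 0.00026) and 4.82 (SE 0.40, 2.2e-05) over blood and 1.42 (SE 0.40, 0.029) between the macrophage groups. The last was lost in 7 of the 17 alternatives, with adjusted p of 0.098, 0.066 and 0.055 without FBR replicates 1, 2 and 3, 0.075 and 0.083 without in vitro activated replicates 2 and 3, 0.064 under quantile normalization and 0.059 with a pseudocount of 1. Ero1a, the oxidase that supplies disulfide bonds, had signals of 1103, 1411 and 1050 in blood, 2898, 2133 and 1477 in cells activated in vitro and 25541, 23333 and 18952 in FBR cells. FBR cells stood far above both other groups, at 4.23 (SE 0.29, 7.9e-06) over blood and 3.41 (SE 0.29, 6.6e-05) over in vitro activated cells. All in vitro activated arrays were also above all blood arrays. That difference of 0.82 (SE 0.29, 0.065) was not called, but passed in 5 of the 17 alternatives (adjusted p of 0.023 to 0.044), among them without in vitro activated replicate 3 (1.07, 0.023), and with the mean of all probe sets (0.74, 0.04). Another Ero1a probe set gave 0.65, 4.36 and 3.70 in the order in vitro activated over blood, FBR over blood and FBR over in vitro activated cells.

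Ddit4 (REDD1, an inhibitor of mTOR that hypoxia and other stresses induce) was lower than blood in both macrophage groups. Its signals were 1413, 1047 and 2141 in blood, 83.7, 45.2 and 35.4 in cells activated in vitro and 620.4, 418.0 and 397.1 in FBR cells. It was highest in every blood array and lowest in every in vitro activated array. The log2 fold changes were -4.45 (SE 0.35, adjusted p = 3.2e-05) in in vitro activated cells and -1.61 (SE 0.35, 0.0054) in FBR cells against blood, and 2.84 (SE 0.35, 0.0005) in FBR over in vitro activated cells. Ndrg1, a stress protein, averaged 3307 ± 1626, 18162 ± 3587 and 22121 ± 2026 (n = 3 each), higher than blood by 2.57 (0.00076) and 2.86 (0.00027), with 0.30 (0.61) between the macrophage groups. A dimmer Ndrg1 probe set, with means of 95.9, 408 and 900, gave 1.92 (0.0062) and 3.12 (0.00028) over blood. Between the macrophage groups it gave 1.20 (0.056), not called, with every FBR array above every in vitro activated array. Higd1a, a mitochondrial protein of the respiratory chain, averaged 929 ± 74 (n = 3), 2562 ± 1377 (n = 3) and 6049 ± 2573 (n = 2), higher than blood by 1.33 (0.033) and 2.62 (0.0016). The former call was lost without each blood array (0.074, 0.093 and 0.071 for replicates 1, 2 and 3) and without in vitro activated replicate 1 (0.92, 0.083), and the uncalled 1.29 (0.061) of FBR over in vitro activated cells was called without in vitro activated replicate 1 (1.70, 0.014).

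The 29 members that were higher in FBR cells than in blood fell into 3 patterns of calls. In 8 (Slc2a1, Pfkl, Tpi1, Pfkfb3, Eno2, Pdk1, Bnip3 and P4ha1) the signal rose from blood to in vitro activated and again to FBR cells, a pattern that 1.1% of all genes had. In 9 (Slc2a3, Hk1, Gpi, Aldoc, Hif1a, Egln1, Egln3, Adm and Ero1a) FBR cells were above both other groups and in vitro activated cells were not called above blood. Together these 17 members were higher in FBR cells than in both others, against 5.41% of all genes. In the remaining 12 (Hk2, Pfkp, Aldoa, Gapdh, Pgk1, Pgam1, Eno1, Ldha, Slc16a1, Slc16a3, Ndrg1 and Higd1a) both macrophage groups were above blood and no difference between them was called. A missing call does not show that those groups are alike, and Slc16a3 and Ldha were above in every FBR array. The patterns rest on the brightest probe set of each gene. For Pgk1 and Gapdh the last pattern depends on that choice. Another Pgk1 probe set and the 5′ one of Gapdh were called between the macrophage groups, with FBR cells above. Their log2 fold changes were 0.91 (adjusted p = 0.015, limma) and 1.44 (0.029). No other probe set of these 12 genes was called there. How many of all genes had the last pattern was not counted. All 9 arrays were fully ordered, FBR above in vitro activated above blood, for 13 of the 33 members with all values, against 3.09% of all genes.

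Genes of the same and neighbouring pathways outside the list had a smaller share called and smaller medians than the members. Members and neighbours were both chosen with earlier results of these data known, so this is a description and no test of a difference between them. Of 77 measured, 35.1%, 46.8% and 37.7% were called in either direction in the 3 comparisons, against 63.9%, 88.9% and 52.8% of the members. Of the 77, 21 were higher and 6 lower in in vitro activated cells than in blood, 31 and 5 in FBR cells than in blood, and 20 and 9 in FBR cells than in those activated in vitro. The shares of all genes were 15.4% and 12.2%, 14.7% and 19.2%, and 8.88% and 16.7%. The medians of the 77 were 0.50, 0.58 and 0.16. The 77 included 17 other isoforms of the glycolytic enzymes and transporters or related enzymes, such as Pgm1, Pgm2, Fbp1 and Bpgm. These 17 had 3 higher and 3 lower in FBR cells than in blood. That is 17.6% each way, near the 14.7% and 19.2% of all genes. Pgm1 and Pgm2 were among the higher and Bpgm among the lower. Eno3 (muscle enolase) had means of 2113, 103 and 96.8 and was lower than blood, at -3.92 (adjusted p = 0.00039) and -4.01 (0.00023). Bpgm, the red cell enzyme that makes 2,3-bisphosphoglycerate, was also lower, at -1.41 (0.0047) and -1.84 (0.00072). The red cell gene Hbb had signals of 9345, 2301 and 271.2 in blood, 30.3, 17.7 and 247.1 in cells activated in vitro and 123.9, 77.6 and 123.5 in FBR cells, so that its blood mean rested on replicate 1, while Bpgm was even across the blood arrays, at 2401, 2076 and 1932. Pfkfb2, another of the bifunctional enzymes, was lower in FBR cells than in blood, at -1.96 (0.0032).

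Of 7 glycogen genes, 4 were higher in FBR cells than in blood and 3 than in in vitro activated cells. The shares of all genes were 14.7% and 8.88%. Gys1, the glycogen synthase, had means of 156, 361 and 2044, with 3.63 over blood (adjusted p = 1.4e-05) and 2.46 over in vitro activated cells (0.00032). The 6 pentose phosphate genes had 3 higher in each macrophage group than in blood (Pgd, Tkt and Taldo1), and 0 higher (0 at an unadjusted p under 0.05 in limma) and 1 lower in FBR cells than in those activated in vitro. Of 10 genes of pyruvate oxidation, 2 were higher than blood in each macrophage group, or 20%, against 15.4% and 14.7% of all genes. Mpc1, a subunit of the mitochondrial pyruvate carrier, was higher in in vitro activated cells than in blood by 1.43 (0.013) and lower in FBR cells than in those activated in vitro, at -1.25 (0.026).

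The list of 10 regulators of HIF was mixed, with 4 higher and 1 lower in FBR cells than in blood. These are 40% and 10%, against 14.7% and 19.2% of all genes. The highest of the 4 was P4ha2, at 5.10 (adjusted p = 9.3e-05, limma), a relative of the collagen enzyme P4ha1 and not a regulator of HIF. Arnt, the constant partner of the alpha subunits, had means of 32.4, 9.52 and 106 and was higher in FBR cells than in blood by 1.40 (adjusted p = 0.0066). Arnt2, its relative, was lower in FBR cells than in those activated in vitro, at -1.64 (0.0095). Of the 27 other HIF targets, 15 were higher and 0 lower in FBR cells than in blood, with 0 lower at an unadjusted p under 0.05 in limma. The shares of all genes called higher and lower there were 14.7% and 19.2%. Vegfa, the vessel growth factor, had signals of 29.8, 36.8 and 62.0 in blood, 395.2, 83.5 and 85.5 in cells activated in vitro and 3786, 1715 and 2428 in FBR cells. It did not overlap between groups, with 5.46 (5.7e-05) in FBR cells over blood and 3.97 (0.00077) over in vitro activated cells. Stc2, a secreted glycoprotein, and Angptl4, an inhibitor of lipoprotein lipase, came next between those groups, at 3.66 (4e-05) and 2.91 (0.039).

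The highest of these targets in both macrophage groups over blood were Slc7a11, the cystine transporter, at 5.38 (adjusted p = 0.00054) and 5.54 (0.00031), and Hmox1, the heme oxygenase, at 4.74 (7.7e-05) and 5.49 (1.9e-05). Both are known to answer other stress signals as well as HIF. Bhlhe41, a transcriptional repressor, had means of 1210, 20281 and 1043. It was higher in in vitro activated cells than in blood by 4.21 (6.7e-05) and lower in FBR cells than in those activated in vitro, at -4.29 (9.2e-05). Tfrc, the transferrin receptor, was also lower there, at -1.64 (0.0034). Mxi1, a MAX partner that opposes MYC, was lower in in vitro activated cells than in blood, at -1.10 (0.025). In FBR cells Mxi1 was higher than in both other groups, by 1.23 over blood (adjusted p = 0.011, limma) and 2.33 over in vitro activated cells (0.0007).

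**Figure D4:**
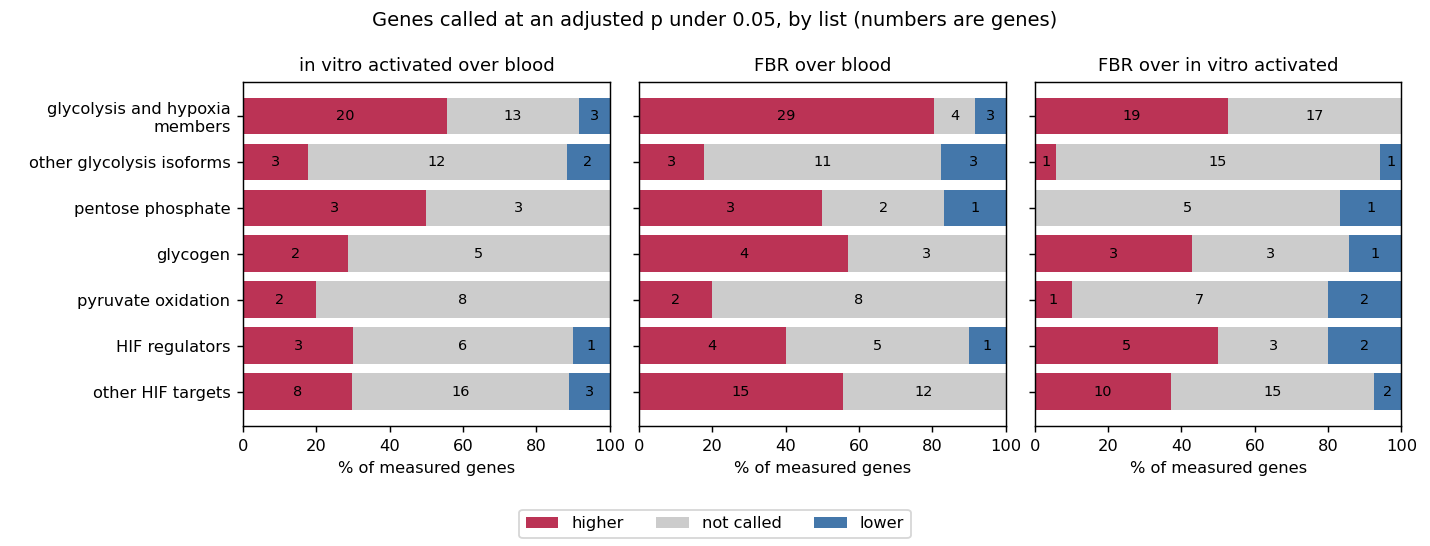
Share of measured genes called higher, lower or not called in each comparison, for the 36 members and 6 lists of neighbouring genes, with the number of genes in each bar. The members had 29 of 36 higher in FBR cells than in blood, and the other HIF targets 15 of 27, against 14.7% of all genes.

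Blood replicate 2 was the lowest of the blood arrays for 21 of the 36 members (58.3%), against 44.5% of all genes, with a median deviation of -0.44 from its group on the log2 scale against -0.08 over all genes. Left out, it changed little in the counts, with 20 members higher and 3 lower in in vitro activated cells than in blood, 29 and 2 in FBR cells than in blood and 20 and 0 in FBR cells than in those activated in vitro. The same fit called 2921 higher and 3492 lower, 2880 and 5437, and 2772 and 5145 of 31096, 31096 and 31099 probe sets. In both FBR comparisons, the scaling of the arrays changed the balance of higher and lower calls more over all genes than among the members. The medians of the members moved with the scaling too. Median centring moved the median difference of all genes by 0.02, 0.37 and 0.34 and quantile normalization by 0.00, 0.16 and 0.16. The share of called genes that were higher was 55.8%, 43.3% and 34.8% as deposited, 57.7%, 65.6% and 62% under centring and 58.7%, 54.1% and 44.7% under quantile normalization. The members stood at 20 higher and 4 lower, 30 and 2, and 23 and 0 under centring, and at 20 and 3, 29 and 2, and 17 and 0 under quantile normalization. Of all genes, 15.7%, 22.5% and 14.2% were higher and 11.5%, 11.8% and 8.67% lower under centring. Under quantile normalization 16.8%, 17.5% and 10.2% were higher and 11.8%, 14.8% and 12.6% lower. The members' medians were 1.33, 2.84 and 1.75 under centring and 1.13, 2.09 and 1.16 under quantile normalization.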

How the data were processed

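The values the authors deposited are MAS5 signals, a linear intensity from the Affymetrix scanner software, which the authors scaled to a trimmed mean near 500 on every array. Many cells of the value table stood without a decimal point or as dates. Of 279891 cells, 233544 (83.4%) were kept, 43356 (15.5%) were whole numbers of 6 or 7 digits divided by 1000, 247 (0.0882%) were read back from dates and 2744 (0.98%) stayed missing. This restoring step and the fit were tested on simulated data.

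Differences were fitted with limma 3.58.1 in R 4.3.3 on log2(signal + 16), with 1 mean per group over all 9 arrays, 6 residual degrees of freedom and no block, with Benjamini-Hochberg adjustment across the 31099 probe sets. Of these, 20832 carry 1 gene symbol, 436 several and 9831 none. Tables and figures were made with Python 3.11.15, pandas 2.3.3, numpy 2.4.6 and matplotlib 3.10.9. The number of arrays limits the precision. Promoter windows are from RefSeq (GRCr8).

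The members and the gene lists were chosen with earlier results of these data known. Values on every array are given for the 16 called members with the largest change and for Slc2a1, Gapdh, Ldha, Hif1a and Hk2, which makes 20 genes, and the 3 highest and 3 lowest called genes of the neighbouring lists are named. Others named from those lists were chosen after their values were seen. Tables of the authors' own comparisons, with RMA log2 fold changes and adjusted p-values, and detection calls were not used here. As alternatives, pseudocounts of 1 and 64 were tried, as were a filter on signals under 50, quantile normalization, median centring, a fit of 6 arrays, trend and robust options, a replicate block, only values with a decimal point, the mean of all probe sets, an adjusted p under 0.01 and each array left out.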

Additional observations from a re-analysis of the deposited data

How the results depend on the processing

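The members were called 74 times in the 3 comparisons. Of these calls, 62 were kept under all 17 alternatives of scaling, pseudocount, filter, model and array, 12 were lost under some of them and 0 changed sign. The 17 do not include the mean of all probe sets, the values with a decimal point or the stricter threshold. With the mean of all probe sets, 21, 29 and 16 members were called. The Pfkfb3 calls in in vitro activated cells over blood and in FBR over in vitro activated cells were among those lost there (adjusted p = 0.084 and 0.062, limma). Leaving out each array in turn gave 20 to 24 members called in in vitro activated cells over blood, 31 to 32 in FBR cells over blood and 16 to 20 in FBR over in vitro activated cells, against 23, 32 and 19 with all arrays. The neighbouring genes gave 24 to 27, 30 to 38 and 21 to 34, and all probe sets 6265 to 7241, 7504 to 10218 and 4394 to 7917. The lowest of these, 4394 and 4595 for FBR over in vitro activated cells, came without FBR replicate 2 and without FBR replicate 3, against 6994 with all arrays.

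With only the values that stood with a decimal point, which drops most signals with 4 digits before the point, 8 of 20 testable members were called in in vitro activated cells over blood, 14 of 16 in FBR cells over blood and 4 of 17 in FBR over in vitro activated cells. The neighbouring genes fell to 13, 17 and 11 calls and all probe sets to 4173, 6003 and 4071, by construction with fewer values. Among the 20 members with printed values, the calls of Pdk1 (adjusted p = 0.051) and Pfkfb3 (0.19) in in vitro activated cells over blood and of Tpi1 (0.1) in FBR over in vitro activated cells were lost there. At an adjusted p under 0.01, a stricter threshold, 18, 30 and 16 members and 4262, 6277 and 3479 probe sets were called, against 7729, 9638 and 6994 probe sets at 0.05.

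Among the same 20 members, signs turned only in values that were not called. Egln3 in in vitro activated cells over blood was 0.01 under median centring, 0.05 with a pseudocount of 64 and 0.05 under quantile normalization, against -0.01 as reported, and ranged from -0.69 without in vitro activated replicate 1 to 0.51 without in vitro activated replicate 3 over the arrays left out (0.11, 0.07, 0.15 and 0.51 without blood replicate 2, blood replicate 3, in vitro activated replicate 2 and in vitro activated replicate 3). Hk2 in FBR over in vitro activated cells was 0.26 under median centring, 0.24 under quantile normalization, 0.14 without FBR replicate 2 and 0.04 without in vitro activated replicate 3, with -0.22 without FBR replicate 1 as its lowest value. The cause was not tested.

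Whether equal replicate numbers share a rat or a day is not given. The deviations of arrays with equal numbers correlated at -0.065 to 0.070, which cannot show that the arrays were unpaired. With the replicate number as a block, 22, 32 and 18 members were called, against 7247, 9201 and 6414 of the 31099 probe sets. Among members the call of Tpi1 in FBR over in vitro activated cells was lost (adjusted p = 0.057, limma). That of Pgk1 in in vitro activated cells over blood was lost too (0.081), with no other change. The signals carry no usable depth, and the fold changes of members with a signal under 16 (Aldoc, Adm, Ldhb, Epas1 and Slc2a3) are shrunk by the pseudocount.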
